A study of Homo sapiens with 8 samples.

Results

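The RNAs described here are 5 structural non-coding RNAs: the 7SL copies RN7SL1 and RN7SL2, the 7SK RNA RN7SK, the RNA of RNase MRP (RMRP) and the RNA of RNase P (RPPH1). They were taken by name from the deposited table, in which each has 1 row among 26902 rows, and all 5 were above the filter on low values that 5806 rows passed. The series holds 8 libraries of U2OS cells, an established osteosarcoma line, in 4 groups of 2: input RNA of cells overexpressing QKI7, input RNA of cells with an empty vector, ribosome footprints of QKI7 cells and ribosome footprints of vector cells. QKI7 is one isoform of QKI, an RNA-binding protein, and every group, vector cells included, had been treated with 0.5 mM sodium arsenite (NaAsO2) for 1 h. Footprints are ribosome-protected fragments of 17 to 34 nt cut from a gel, and ribosomal RNA was depleted before sequencing with 51 nt single reads. Whether replicate libraries were grown separately, and whether the overexpressing cells were 1 clone, is not stated in the labels, so the error behind each p-value is that between libraries and may be purely technical. No cells without arsenite were analysed here.

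The 5 RNAs are made by RNA polymerase III and work as parts of ribonucleoproteins, without being translated. 7SL is the scaffold of the signal recognition particle (SRP), which binds ribosomes that make secreted and membrane proteins and brings them to the endoplasmic reticulum. 7SK holds the elongation kinase P-TEFb in an inactive complex in the nucleus. RPPH1 is the catalytic RNA of RNase P, which trims the 5′ ends of precursor tRNAs, and RMRP is the related RNA of RNase MRP, which acts in the nucleolus on precursor ribosomal RNA. In RefSeq's annotation of GRCh38.p14, RN7SL1 (gene 6029) lies on chromosome 14 from 49586580 to 49586878 and RN7SL2 (gene 378706) on chromosome 14 from 49862551 to 49862849, each 299 nt long. RPPH1 (gene 85495) lies on chromosome 14 from 20343071 to 20343411 (341 nt), RN7SK (gene 125050) on chromosome 6 from 52995620 to 52995951 (332 nt) and RMRP (gene 6023) on chromosome 9 from 35657750 to 35658019 (270 nt). RN7SL1 and RN7SL2 are near-identical copies whose reads cannot be told apart over most of their length, so the split between them depends on how the authors' software assigned shared reads, and their sum is given beside them.

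Values are TPM, a share of the library corrected for transcript length, so that a rise of one row lowers the others. QKI itself stood at 1749 and 1580 TPM in QKI7 inputs, against 3.01 and 3.45 TPM in vector inputs. Ribosomal RNA rows took 96.8% of TPM in each QKI7 footprint library and 97.3% in each vector footprint library, but 0.0264% to 0.103% of the inputs. The 92 ERCC spike-in rows, synthetic RNAs added to a sample, took 15.9% and 13.1% of the QKI7 inputs and 13.3% and 14.4% of the vector inputs. In footprints they summed to 12.3 and 12.3 TPM with QKI7 and 11.2 and 10.8 TPM with vector, with 26 or 27 of the 92 rows above 0. Of 7 mesenchymal and bone markers, 5 averaged at least 1 TPM in inputs (VIM, SPARC, COL1A1, FN1 and CD44), while COL1A2 and the bone factor RUNX2 did not. The same was true of 0 of 4 blood, 0 of 4 neural and 1 of 4 epithelial markers (KRT18), with summed levels of 130 to 151 TPM for the mesenchymal and bone list, 28.7 to 35.4 for the epithelial one, 0.64 to 0.80 for the neural one and 0.10 to 0.59 for the blood one. The reads behind a value are unknown because TPM keeps no depth.

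**Figure D1:**
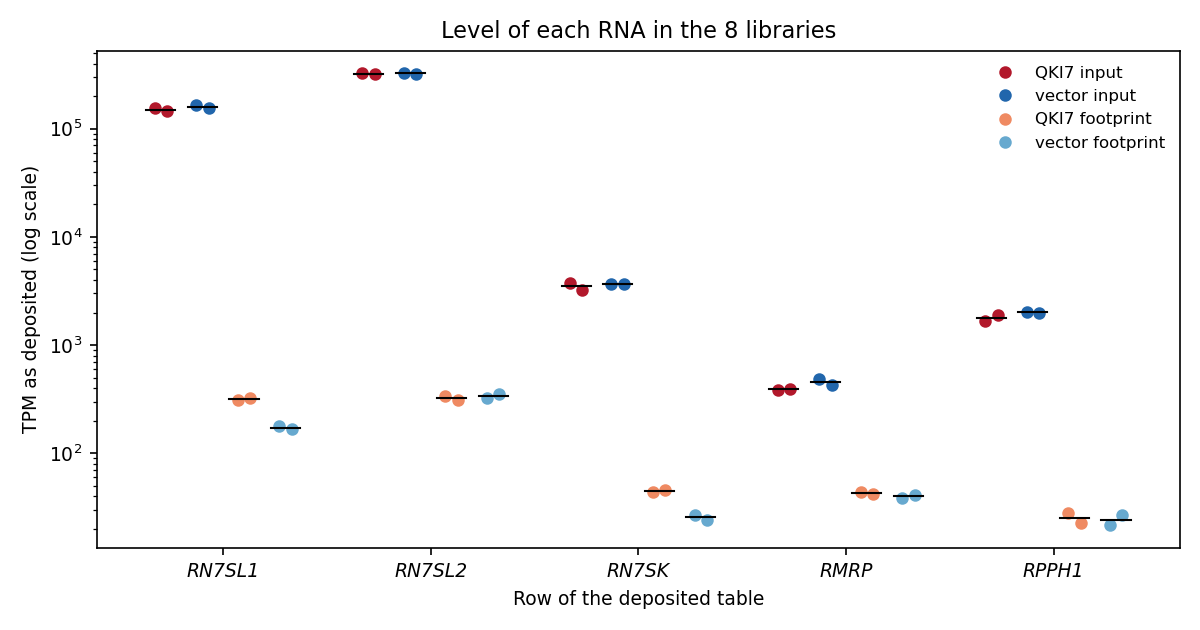
TPM of the 5 RNAs on a log axis, with 1 point per library and a black line at the mean of each group of 2. RN7SL2 and RN7SL1 lead in every group, with their points overlapping in QKI7 footprints, and every footprint point lies below the input points of the same RNA.

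The 5 RNAs made up 47.2% to 49.6% of input TPM, nearly all of it 7SL. Together they took 48.4% and 47.2% of the QKI7 inputs and 49.6% and 48.3% of the vector inputs. RN7SL2 was the most abundant row of every input, at 32.4% and 32.2% of TPM with QKI7 and 32.5% and 32.3% with vector. RN7SL1 was the next, at 15.4% and 14.5% with QKI7 and 16.5% and 15.4% with vector. The other 3 were far lower but still among the 39 highest rows of each input. RN7SK held 3756 and 3235 TPM in QKI7 inputs and 3660 and 3677 TPM in vector inputs. RPPH1 held 1677 and 1878 TPM with QKI7 and 2042 and 1980 TPM with vector. RMRP was the lowest, with 385 and 393 TPM in QKI7 inputs and 482 and 431 TPM in vector inputs. The order RN7SL2, RN7SL1, RN7SK, RPPH1, RMRP was the same in all 4 inputs, and no ranges of neighbours overlapped. Per unit of length, 7SL stood 136 ± 12.1 times above RN7SK in QKI7 inputs and 132 ± 2.95 times in vector inputs (SD, n = 2 each). RPPH1 stood 4.57 ± 0.293 times above RMRP in QKI7 inputs and 4.42 ± 0.253 times in vector inputs.

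In footprints the order was different and the 5 RNAs were minor components. Together they took 0.0765% and 0.0751% of TPM in QKI7 footprints and 0.0589% and 0.0611% in vector footprints. RN7SL2 had 338.9 and 313.7 TPM in QKI7 footprints, against 321.3 and 351.9 TPM in vector footprints. RN7SL1 had 310.3 and 327.2 TPM with QKI7, against 180.2 and 166.2 TPM with vector. The 2 copies therefore overlapped in QKI7 footprints and were separate in vector footprints. RN7SK had 44.0 and 45.8 TPM in QKI7 footprints and 27.0 and 24.4 TPM in vector footprints. RMRP, the lowest of the 5 in inputs, had 43.9 and 42.0 TPM with QKI7 and 38.9 and 41.3 TPM with vector. RPPH1 had 28.1 and 22.6 TPM with QKI7 and 21.6 and 27.0 TPM with vector. RMRP was above RPPH1 in every footprint library. RN7SK and RPPH1 overlapped in vector footprints, and RN7SK and RMRP nearly met in QKI7 footprints (44.0 against 43.9 TPM).

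Inputs answer whether the level of these RNAs changed with QKI7, and for none of the 5 was a change called. In such bulk libraries, fewer cells of a type and less RNA per cell cannot be told apart. With limma on log2(TPM + 1), 0 of 5 passed an adjusted p of 0.05, while 44.6% of all 5806 entries did (39.1% higher, 5.48% lower). The changes ran from -0.23 to -0.003 with a median of -0.10, and all 5 lay below the median of all entries, 0.15. RMRP had the lowest value, -0.23 (SE 0.097, unadjusted p = 0.0473, adjusted p = 0.0897), and its 2 QKI7 inputs both lay under its vector inputs. RPPH1 differed by -0.18 (SE 0.144, adjusted p = 0.335), with both QKI7 inputs again under the vector inputs. RN7SL1 differed by -0.10 (SE 0.091, adjusted p = 0.415), RN7SK by -0.07 (SE 0.108, adjusted p = 0.602) and RN7SL2 by -0.003 (SE 0.086, adjusted p = 0.992). For RN7SL1 both QKI7 inputs were also under the vector inputs, by less than the gap between replicates at the nearest pair. For RN7SK and RN7SL2 the groups overlapped. How many of all entries separated by group in inputs was not counted. The many higher calls of other entries depend on the settings of the fit, which all 8 libraries share. With ribosomal RNA rows left out and the rest rescaled, 4 entries in all were called. That setting hardly moved the input values (RN7SL1 -0.10 in both, median of all entries 0.13 against 0.15). Ribosomal RNA took at most 0.103% of inputs, so mainly the footprint libraries were rescaled. Why the calls were lost was not tested. Quantile normalization was the exception among the settings tried in calling 1 of the 5, RMRP (-0.43, adjusted p = 0.0144).

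Relative to the summed spike-ins, the inputs gave the same picture with a wider spread. RN7SL1 stood at 0.968 and 1.10 times the spike-in sum in QKI7 inputs, against 1.24 and 1.07 times in vector inputs. RN7SL2 stood at 2.04 and 2.45 times with QKI7 and 2.44 and 2.24 times with vector. RN7SK stood at 0.0237 and 0.0247 with QKI7 and 0.0275 and 0.0255 with vector. Its QKI7 libraries were both lower, a separation that was not counted over all entries. RPPH1 stood at 0.0106 and 0.0143 with QKI7 and 0.0154 and 0.0137 with vector. RMRP stood at 0.00242 and 0.00300 with QKI7 and 0.00362 and 0.00299 with vector. QKI7 input replicate 1, the library with the highest spike-in share, was the lowest of the 4 inputs for all 5 RNAs. In the fit of spike-in-scaled values the changes ran from -0.29 for RMRP (SE 0.149, adjusted p = 0.172) to -0.06 for RN7SL2 (SE 0.166, adjusted p = 0.807), and 0 of 5 were called against 30.7% of all entries (5.42% lower).

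Footprint libraries answer whether fragments of these RNAs in the gel-cut range of 17 to 34 nt changed with QKI7. There RN7SL1 and RN7SK rose while the other 3 were not called. Whether the fragments of these untranslated RNAs came from ribosomes was not tested. RN7SL1 averaged 319 ± 11.9 TPM in QKI7 footprints and 173 ± 9.93 TPM in vector footprints (SD, n = 2 each), a ratio of 1.84 (0.88 on the log2 scale, SE 0.091, adjusted p = 0.00135). RN7SK averaged 44.9 ± 1.26 TPM with QKI7 and 25.7 ± 1.82 TPM with vector, a ratio of 1.75 (0.78 on the log2 scale, SE 0.108, adjusted p = 0.0041). For both, each QKI7 library was above each vector library, but how many of all entries separated in this way was not counted. RMRP averaged 42.9 ± 1.40 and 40.1 ± 1.70 TPM (log2 change 0.10, SE 0.097, adjusted p = 0.764), RPPH1 25.3 ± 3.92 and 24.3 ± 3.78 TPM (0.06, SE 0.144, adjusted p = 0.971) and RN7SL2 326 ± 17.8 and 337 ± 21.7 TPM (-0.04, SE 0.086, adjusted p = 0.947) in QKI7 and vector footprints. Thus 2 of 5 were called higher and 0 lower, where 3.6% of all entries were called higher, 4.6% lower and 8.2% in either direction, and the median over the 5 was 0.10 against 0.01 over all entries. RN7SL1 and RN7SK were called in all 8 fits that left out 1 library, with changes of 0.82 to 0.94 and 0.71 to 0.85. The call of RN7SL1 ended when no filter on low values was used (adjusted p = 0.0879), and that of RN7SK when the footprint libraries were fitted alone (adjusted p = 0.0572). For 1 value in 2 against 2 libraries, the smallest p of an exact permutation test is 0.33.

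**Figure D2:**
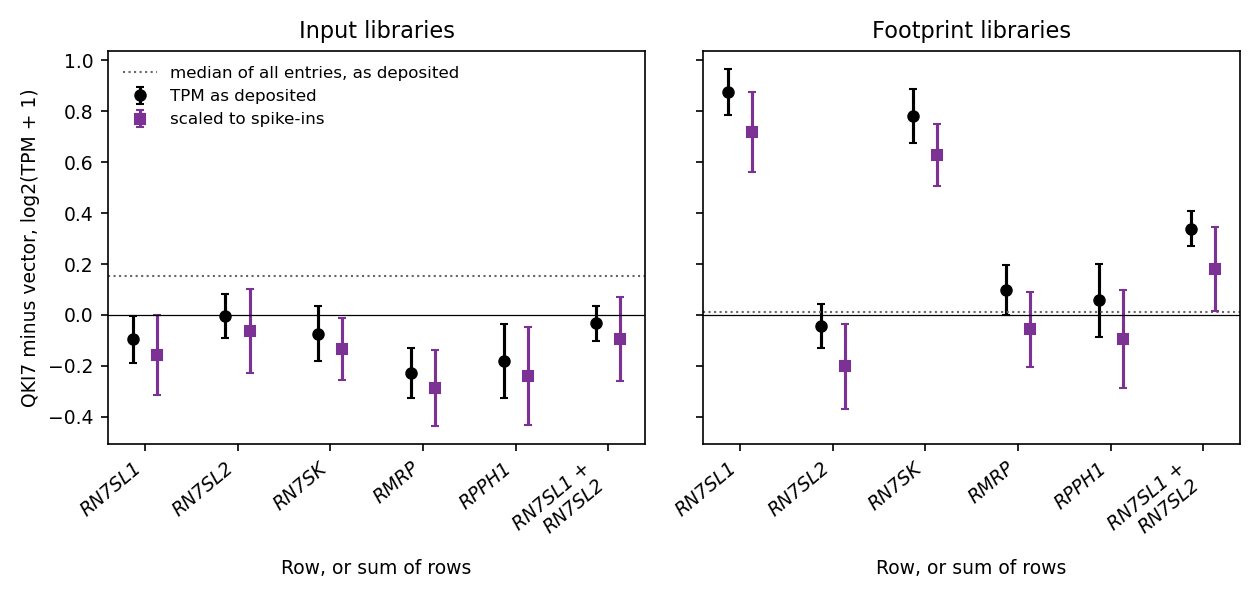
Change with QKI7 (QKI7 minus vector on the log2(TPM + 1) scale, bars 1 SE) in input libraries on the left and footprint libraries on the right, for TPM as deposited (black) and scaled to the spike-ins (purple), with the dotted line at the median of all entries. All inputs lie near or under 0, while RN7SL1 (0.88) and RN7SK (0.78) stand above the other RNAs in footprints.

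Set against the spike-ins, the footprint values were 25.2 and 26.7 times the spike-in sum for RN7SL1 with QKI7, against 16.1 and 15.4 times with vector. RN7SK stood at 3.58 and 3.73 times with QKI7 and 2.41 and 2.26 times with vector. Neither RNA's groups overlapped on this scale, and here too the share of all entries that separated was not counted. RN7SL2 stood at 27.6 and 25.6 times with QKI7 and 28.7 and 32.5 times with vector, RMRP at 3.57 and 3.42 times with QKI7 and 3.47 and 3.81 times with vector, and RPPH1 at 2.29 and 1.84 times with QKI7 and 1.93 and 2.49 times with vector. On the log2 scale RN7SL1 was 0.72 higher (SE 0.156, adjusted p = 0.02) and RN7SK 0.63 higher (SE 0.122, adjusted p = 0.0125), again 2 of 5 against 9.51% of all entries in either direction, 2.44% higher and 7.07% lower. RN7SL2, RMRP and RPPH1 had values of -0.20, -0.06 and -0.09, so the sign of RMRP and RPPH1 differed from that of TPM as deposited. The spike-in sum of a footprint library rests on 10.8 to 12.3 TPM. The labels do not say whether spike-in was added to footprint libraries on purpose, or how much went into each library type. Spike-in ratios of footprints and inputs are therefore not compared. Whether that small sum is a usable scale within footprints was not tested.

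The 7SL rows differed from each other in footprints. RN7SL1 made up 47.8% and 51.0% of 7SL TPM (RN7SL1 plus RN7SL2) in QKI7 footprints, against 35.9% and 32.1% in vector footprints. In inputs it made up 32.2% and 31.03% with QKI7 and 33.7% and 32.3% with vector. The share in QKI7 footprints stood above the other 3 groups, and that in vector footprints overlapped both input groups. The difference in footprints was 15.4 percentage points (exact permutation p = 0.33, two-sided, the smallest that 2 against 2 allows). As 1 RNA, 7SL reached 649 and 641 TPM in QKI7 footprints, against 501 and 518 TPM in vector footprints, a ratio of 1.27 (0.34 on the log2 scale, SE 0.070, adjusted p = 0.0234, in a fit added after seeing the data). This call was lost when the libraries were scaled to the spike-ins (0.18, adjusted p = 0.777) and when ribosomal RNA rows were left out (0.09, adjusted p = 0.139). Of the 8 fits that left out 1 library (0.32 to 0.36, adjusted p = 0.000681 to 0.174), it was kept in the 2 without a QKI7 input library and lost in the 6 without a vector input or a footprint library. In inputs, 7SL as 1 RNA averaged 472386 ± 7919 TPM with QKI7 and 483248 ± 9213 TPM with vector (log2 change -0.03, SE 0.070, adjusted p = 0.73). With ribosomal RNA rows left out, RN7SL1 and RN7SK stayed higher in QKI7 footprints (0.63 and 0.56, adjusted p = 0.00207 and 0.00664), and RN7SL2 was called lower (-0.29, adjusted p = 0.0215).

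**Figure D3:**
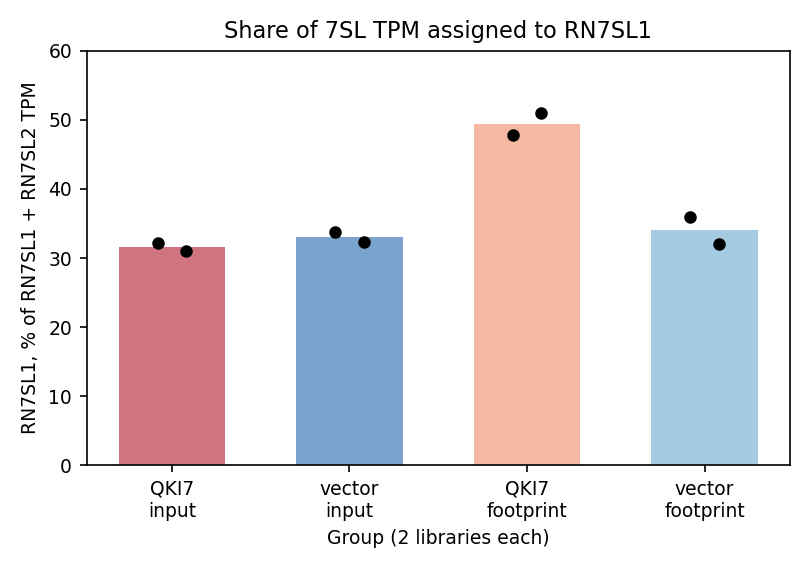
RN7SL1 as a percentage of the summed RN7SL1 and RN7SL2 TPM, with bars at group means and points for the 2 libraries of each group. QKI7 footprints lie at 47.8% and 51.0%, while the libraries of the other 3 groups lie between 31.03% and 35.9%.

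The test of the difference between library types, which asks whether the change with QKI7 was larger in footprints than in inputs, passed for the same RNAs. It gave 0.97 for RN7SL1 (SE 0.128, adjusted p = 0.00685) and 0.86 for RN7SK (SE 0.152, adjusted p = 0.0121). RMRP stood at 0.33 (SE 0.137, adjusted p = 0.112), RPPH1 at 0.24 (SE 0.204, adjusted p = 0.398) and RN7SL2 at -0.04 (SE 0.122, adjusted p = 0.817). Thus 2 of 5 were called higher, where 3.57% of all entries were called higher and 21.6% lower, and the median over the 5 was 0.33 against -0.16 over all entries. Scaled to the spike-ins, RN7SL1 stood at 0.88 and RN7SK at 0.76 (adjusted p = 0.0331 and 0.0256), beside 2.13% of all entries called higher. The call of RN7SL1 was lost without a filter on low values (adjusted p = 0.0666), and quantile normalization gave smaller values of 0.55 for RN7SL1 and 0.49 for RN7SK, both in this difference and in footprints alone. This contrast shares its libraries with the comparisons of inputs and of footprints, so it is not a separate line of evidence.

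Footprint libraries held far less of each RNA than inputs did, and the 5 differed from each other in how much was left. As deposited, all 5 fell in each construct. So did 90.8% of all entries in QKI7 cells and 89.9% in vector cells, with 7.42% and 7.7% higher and 98.2% and 97.6% called in either direction, and the values depend on the share that ribosomal RNA took. RN7SL2 was 990 times lower in QKI7 footprints than in QKI7 inputs and 962 times lower in vector footprints than in vector inputs. RN7SL1 was 468 times lower with QKI7 and 922 times with vector. RN7SK was 77.8 times lower with QKI7 and 143 times with vector, and RPPH1 70.2 and 82.7 times. RMRP was the least reduced, 9.06 times lower with QKI7 and 11.4 times with vector. On the log2 scale the change in QKI7 cells was -9.95 for RN7SL2, -8.87 for RN7SL1, -6.25 for RN7SK, -6.08 for RPPH1 and -3.15 for RMRP, each with a standard error between 0.086 and 0.144. The median of all entries was -1.97 in QKI7 cells and -1.81 in vector cells. Only 13 of the 5806 entries had a lower value than RN7SL2 in each construct, while 690 entries in QKI7 cells and 349 in vector cells lay below RMRP. The place of an RNA among all entries depends on the constant added before taking logs, which limits the drop of low entries. With 0.1 added instead, the median of all entries was -3.92 in QKI7 cells and -3.79 in vector cells. RMRP then stood at -3.18 and -3.50, above these medians rather than below them.

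With ribosomal RNA rows left out and the other rows rescaled to equal sums, RMRP turned round. It was then higher in footprints than in inputs, by 1.79 with QKI7 and 1.71 with vector (SE 0.075 each, adjusted p = 1.87e-06 and 1.93e-06), beside medians of all entries of 0.69 and 0.90. Median-of-ratios scaling also put RMRP higher in footprints, by 0.85 with QKI7 and 0.39 with vector. The other 4 remained lower with ribosomal RNA left out. In QKI7 cells they stood at -4.98 for RN7SL2, -3.90 for RN7SL1, -1.30 for RN7SK and -1.16 for RPPH1, and in vector cells at -4.69, -4.62, -1.93 and -1.15 in the same order. In shares without ribosomal RNA and spike-ins, the 5 RNAs together took 2.39% ± 0.0616 of QKI7 footprints and 2.24% ± 0.0687 of vector footprints, and 56.0% ± 2.21 of QKI7 inputs and 56.8% ± 0.553 of vector inputs (SD, n = 2 each).

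**Figure D4:**
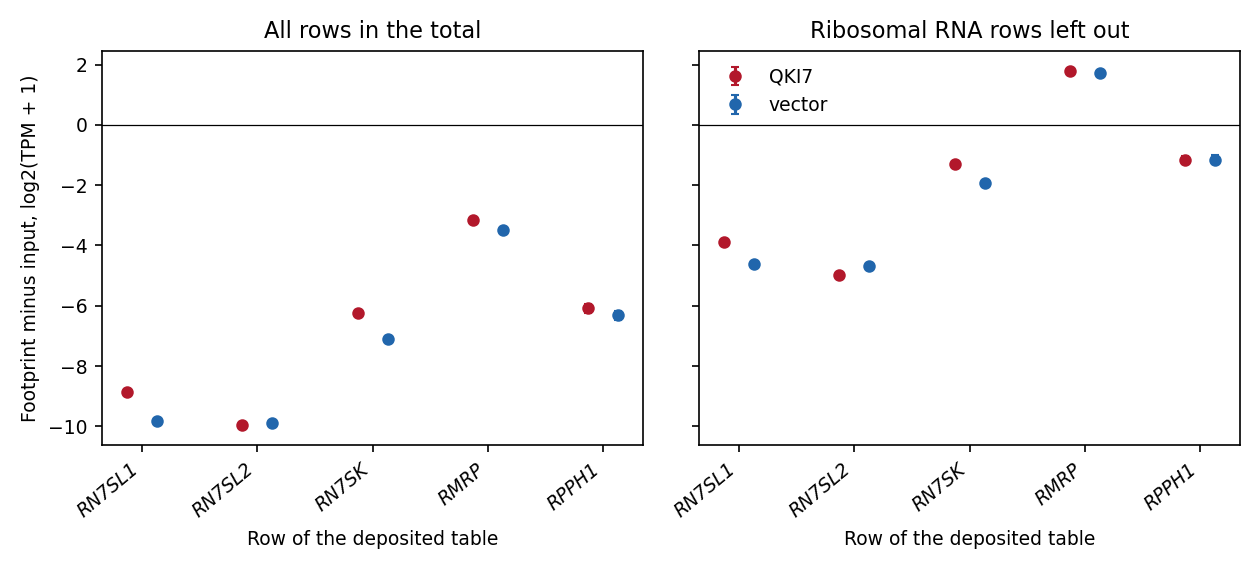
Footprint minus input on the log2(TPM + 1) scale (bars 1 SE, often smaller than the point) for QKI7 cells (red) and vector cells (blue), with all rows in the total on the left and ribosomal RNA rows left out on the right. RN7SL2 and RN7SL1 are lowest in both panels, and RMRP stands at -3.15 (QKI7) and -3.48 (vector) on the left and at 1.79 and 1.71 on the right.

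Other RNAs of similar kind did not share one behaviour. All 6 tested vault and Y RNAs, which RNA polymerase III also makes, were higher in footprints than in inputs as deposited. Of all entries, 7.42% were called higher in QKI7 cells and 7.7% in vector cells. The changes of these 6 were 1.64 to 8.72 in QKI7 cells and 1.94 to 8.23 in vector cells. The largest in both, that of VTRNA1-2, rests on 0.27 to 0.79 TPM in inputs, where the added 1 sets most of the log value. VTRNA1-1 held 560 and 510 TPM in QKI7 footprints and 12.7 and 11.4 TPM in QKI7 inputs, and 370 and 378 TPM in vector footprints and 12.6 and 14.8 TPM in vector inputs. It was also higher with QKI7 in footprints (log2 change 0.51, adjusted p = 0.027), while the change in inputs was -0.17 (adjusted p = 0.233). With QKI7, 6 of 23 tested spliceosomal rows were higher and 2 lower in footprints, beside 3.6% and 4.6% of all entries. Of these RNU5A-1 at 0.88 (adjusted p = 0.00359) and RNU5E-1 at 0.70 (adjusted p = 0.00399), copies of U5, had changes of the size of those of RN7SL1 and RN7SK. In the difference between library types, 3 of 23 spliceosomal rows and 2 of 6 vault and Y RNAs were called higher, beside 3.57% of all entries. A higher call there was therefore not limited to RN7SL1 and RN7SK. Against inputs, spliceosomal RNAs went both ways, with 13 of 23 tested rows lower and 8 higher in QKI7 footprints (90.8% and 7.42% of all entries), and 15 lower and 4 higher in vector footprints (89.9% and 7.7%). The rows RNU1-1 to RNU1-4 and RNVU1-18 held the same values, as did RNU6-2 and RNU6-9, so these counts include rows that are not separate measurements. RNU1-1, a copy of U1, changed by -7.11 in QKI7 cells and -7.00 in vector cells. No test of the difference between these groups of RNAs was made.

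By profile over the 8 libraries (distance between log2(TPM + 1) values after subtracting each entry's mean), the members were not each other's nearest entries. The 3 entries nearest to each of RN7SL1, RN7SL2, RN7SK and RPPH1 were spike-ins, for RN7SL2 ERCC-00111 at 0.34, ERCC-00042 at 0.37 and ERCC-00145 at 0.49, and for RPPH1 ERCC-00165 at 0.49, ERCC-00092 at 0.53 and ERCC-00025 at 0.57. For RN7SL1 they were ERCC-00060, ERCC-00136 and ERCC-00009 at 0.96 to 1.07, and for RN7SK ERCC-00116, ERCC-00078 and ERCC-00025 at 0.78 to 0.88. These spike-ins averaged 0.005 to 0.0925 TPM in footprints, where the added 1 sets the log value, so the likeness is mainly that of a steep drop. RMRP lay nearest to the mRNAs SMTN (0.16), LMNB2 (0.22) and KLHDC4 (0.25). These mRNAs averaged 15.1, 11.6 and 10.7 TPM in inputs and 0.63, 0.225 and 0.145 TPM in footprints. There too the added 1 sets most of the log value, so their drop in TPM need not match that of RMRP. Between members the smallest distances were 1.10 for RN7SK and RPPH1 and 1.25 for RN7SL1 and RN7SL2. All are descriptions over 8 libraries that differ mostly by library type.

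The mRNAs of the protein partners were low beside the RNAs they bind, and the counts that passed the test with QKI7 are set here beside the shares of all entries, 44.6% in inputs and 8.2% in footprints. Of 8 SRP and SRP receptor genes, 6 were tested, of which 1 fell in inputs (5.48% of all entries did) and 1 in footprints (4.6%). SRP14, whose protein binds the Alu domain of 7SL together with SRP9, fell in inputs, with 1.47 and 1.33 TPM with QKI7 against 1.85 and 1.71 TPM with vector (log2 change -0.21, adjusted p = 0.0308). SRP9 fell in footprints, with 1.14 and 1.32 TPM with QKI7 against 2.01 and 1.77 TPM with vector (log2 change -0.37, adjusted p = 0.0416), and its footprint change was also lower than its input change (-0.46, adjusted p = 0.0355). Of all entries 21.6% were called lower in that difference. Scaled to the spike-ins, SRP14 also fell in footprints (-0.36, adjusted p = 0.0258), where 7.07% of all entries were called lower. The medians of the SRP list were 0.02 in inputs and -0.15 in footprints, against 0.15 and 0.01 over all entries. Of 7 genes for 7SK-bound proteins and P-TEFb, 5 were tested, and only CCNT2, a cyclin of P-TEFb, was called, higher in inputs, with 3.07 and 2.53 TPM with QKI7 against 2.16 and 2.35 TPM with vector (0.22, adjusted p = 0.0429). Of all entries 39.1% were called higher in inputs, with a median of 0.15, so 1 of 5 is no more than that share. The medians of this list were 0.14 in inputs and 0.07 in footprints. As described above for all entries, calls in inputs such as those of SRP14 and CCNT2 depend on the settings of the shared fit. At their TPM the added 1 also makes up a sizeable part of the value that is logged. HEXIM1, the inhibitor that 7SK brings to P-TEFb, had 15.6 and 15.3 TPM in QKI7 inputs and 15.7 and 14.9 TPM in vector inputs. LARP7, which protects the 3′ end of 7SK, had 10.2 and 9.64 TPM in QKI7 inputs and 8.06 and 8.76 TPM in vector inputs. Of 10 genes for protein subunits of RNase P and MRP, only RPP38 passed the filter on low values, and it was not called in inputs or footprints. Against inputs, footprints held less of 5 of the 6 SRP genes and of all 5 tested 7SK partner genes in both constructs, while SRP14 was higher by 0.55 in QKI7 cells and 0.58 in vector cells. The share of all entries lower in footprints was 90.8% in QKI7 cells and 89.9% in vector cells, close to that of these lists.

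Among 31 genes for RNA polymerase III, its factors and the RNA-binding protein La (SSB), 18 were tested, and in inputs 4 rose and 3 fell, beside 39.1% of all entries higher and 5.48% lower, with a median of 0.08 against 0.15 over all entries. Calls in inputs depend on the settings of the shared fit for this list too, since with ribosomal RNA rows left out no more than 4 entries of the whole table were called. That setting rescaled mainly the footprint libraries and left input values nearly as they were. GTF3C2, POLR1C, BDP1 and POLR3A rose by 0.24, 0.29, 0.26 and 0.22 (adjusted p = 0.00715, 0.0395, 0.0265 and 0.0108). SNAPC1, a subunit of the SNAPc complex that binds promoters of genes such as RN7SK, RMRP and RPPH1, had 21.5 and 19.4 TPM in QKI7 inputs, against 26.7 and 29.1 TPM in vector inputs (log2 change -0.43, adjusted p = 0.00522). In footprints, where the list's median was 0.02, it was the single gene called as deposited, with 2.50 and 2.39 TPM with QKI7 against 4.73 and 4.61 TPM with vector (-0.72, adjusted p = 0.00201). SNAPC4, the largest SNAPc subunit, and POLR3D fell in inputs by 0.19 and 0.22 (adjusted p = 0.0336 and 0.0181). In the difference between library types, 1 of 18 was called higher and 2 lower, beside 3.57% and 21.6% of all entries. SNAPC4 stood at 0.31 (adjusted p = 0.0354) from footprint values of 0.15 and 0.15 TPM with QKI7 and 0.05 and 0.07 TPM with vector. POLR1C stood at -0.43 (adjusted p = 0.0499), with 0.24 to 0.41 TPM in footprints. GTF3C2 stood at -0.26 (adjusted p = 0.0358), with 0.26 to 0.33 TPM in footprints and a change there of -0.02. At such levels the added 1 sets most of the log value. Scaled to the spike-ins, 1 gene of this list rose in inputs (POLR1C) and 3 fell (SNAPC1, SNAPC4 and POLR3D). Of all entries 25.3% were called higher in inputs on that scale and 5.42% lower. SSB also fell in footprints (-0.41, adjusted p = 0.0407), where 7.07% of all entries were called lower. On that scale the difference between library types was still called for POLR1C (adjusted p = 0.0371), beside 14.5% of all entries called lower. It was no longer called for SNAPC4 (0.35, adjusted p = 0.0621) or GTF3C2 (-0.26, adjusted p = 0.123).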

How the data were processed

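The authors deposited 1 table of TPM for 26902 rows in 8 libraries, with 2 decimals. Per the submitters' processing notes STAR, RSEM 1.2.31 and GRCh38 were used. The annotation, strand and treatment of shared reads are not given in the sources used here. Each column has the same total over all rows, spike-ins and ribosomal RNA included, and the length correction of short rows depends on settings that are not stated.

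From these values, shares of total TPM and ratios to the 92 summed ERCC rows were computed for the 5 RNAs. limma 3.58.1 in R 4.3.3 (lmFit, eBayes with a variance trend, two-sided) was run on log2(TPM + 1) of the 5806 rows with a mean of at least 1 TPM, with 4 group means, 4 residual degrees of freedom and Benjamini-Hochberg adjustment over all rows at 0.05. The added 1 understates changes of low rows. A second fit multiplied each library by the mean spike-in sum of its library type over its own. The fit was tested on simulated data in which each row had the same spread in inputs and footprints. That test could therefore not show how unequal spread would affect the calls. The members, the 4 partner lists and the tests were chosen with earlier results of these data known. Named partner genes are up to 4 called per list and contrast, by size. HEXIM1, LARP7, RPP38, POLR3A, SSB, VTRNA1-1, RNU5A-1, RNU5E-1 and other spliceosomal rows were named after their values were seen. Coordinates are RefSeq's (GRCh38.p14), matched by symbol for 5 of 5 RNAs.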

Additional observations from a re-analysis of the deposited data

Results flagged for a closer look

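For RN7SL1 the change with QKI7 was 0.97 higher in footprints than in inputs (log2 scale, adjusted p = 0.00685 by limma's interaction term). Both QKI7 footprint libraries lay above both vector footprint libraries, a separation that was not counted over all entries. For RN7SK the difference between library types was 0.86 (adjusted p = 0.0121). RN7SL2, which shares most of its sequence with RN7SL1, stood at -0.04 in that test (adjusted p = 0.817), and the sum of both 7SL rows at 0.37 (adjusted p = 0.0321), or 0.27 when scaled to the spike-ins (adjusted p = 0.428). The part of read assignment between the 7SL copies in these values was not tested.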

How the results depend on the processing

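All changes are on the log2 scale. RN7SL1 and RN7SK kept their direction in footprints and in the difference between library types under every setting, and lost their calls in 3 places: RN7SL1 without a filter on low values (0.88 and 0.97, with an SE in footprints of 0.154 against 0.091) and RN7SK with the footprint libraries alone (0.78, fewer libraries). Quantile normalization gave 0 for RN7SL1, RN7SL2 and RN7SK in inputs, called RMRP lower in inputs (-0.43) and RN7SL2 lower in footprints and in the difference (-0.48 each), and put RMRP at -0.36 and RPPH1 at -0.064 in footprints. With ribosomal RNA left out, RN7SL2 was called lower in footprints (-0.29), RMRP stood at -0.15 and RPPH1 at -0.19 there, RPPH1 at -0.010 in the difference, RMRP turned to 1.79 (QKI7) and 1.71 (vector) in footprints over inputs, and the 7SL sum lost its calls (0.090 in footprints, 0.12 in the difference). Median-of-ratios scaling put RMRP at 0.85 (QKI7) and 0.39 (vector) in footprints over inputs, RN7SL2 at 0.087 in the difference, and RMRP at -0.0054 and RPPH1 at -0.045 in footprints. Spike-in scaling put these at -0.057 and -0.095 and the 7SL sum at 0.18 in footprints and 0.27 in the difference, without calls. The causes of the changes in sign were not tested. Leaving out 1 library moved RN7SL2 over -0.0077 to 0.0026 in inputs, -0.11 to 0.021 in footprints and -0.11 to 0.024 in the difference, RN7SK over -0.18 to 0.034 in inputs, RPPH1 over -0.095 to 0.21 in footprints, and the 7SL sum over 0.32 to 0.36 in footprints and 0.35 to 0.40 in the difference, none of these called but the 7SL sum without either QKI7 input.

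Counts of called entries moved more than the 5 RNAs. In inputs, 2587 became 375 with 0.1 added, 5153 without a filter, 156 from 10 TPM, 4 without ribosomal RNA, 171 with median-of-ratios, 809 with quantile normalization and 913 with 4 libraries. In footprints, 476 became 1124, 266, 207, 2471, 1527, 875 and 74 in the same order. In the difference, 1461 became 217, 819, 122, 819, 716 and 572 in that order up to quantile normalization, and 966 with spike-in scaling. For footprints over inputs, 5703 in QKI7 cells and 5667 in vector cells became 17195 and 16314 without a filter, 488 and 487 from 10 TPM, and 2975 and 3003 with median-of-ratios. Leaving out 1 library gave 1685 to 2603 in inputs (lowest without QKI7 replicate 1), 253 to 439 in footprints, 269 to 1931 in the difference (both lowest without QKI7 footprint replicate 1), and 5676 to 5708 and 5645 to 5674 in footprints over inputs. Without spike-ins and ribosomal RNA in the total, the 5 RNAs took 2.39% of QKI7 footprints and 2.24% of vector footprints, and 56.0% of QKI7 inputs and 56.8% of vector inputs.

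The labels number the libraries of each group but name no shared source, and same-numbered libraries did not deviate together across constructs (correlations of -0.09 in inputs and 0.06 in footprints). Between input and footprint libraries of the same construct and number, the correlation was 0.13 with QKI7 and 0.008 with vector. With the replicate block, no call of the 5 RNAs changed (RN7SL1 in footprints 0.88, adjusted p = 0.00223; RN7SK 0.78, adjusted p = 0.00694, limma), and the counts were 2305 in inputs, 423 in footprints and 1099 in the difference. The alternative of adding further RN7SL or RN7SK rows gave no value because the table has no others. TPM keeps no depth, so counting error is unknown.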
